A study of Rattus norvegicus with 16 samples.

Results

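The 3 genes described here, Lox, Loxl1 and Loxl2, encode lysyl oxidases, the secreted copper enzymes that crosslink collagen and elastin. They were chosen by gene symbol, and each had 1 transcript cluster (a group of array probes read as 1 gene) that carried no other symbol, among 14557 genes tested. Affymetrix arrays (Rat Gene 2.1 ST) were used to measure expression in the plantaris, a hindlimb muscle, of Sprague Dawley rats that were retired breeders. Removal of the Achilles tendon on both sides put the gastrocnemius and soleus out of action and left the plantaris to carry their load, a model known as synergist ablation. The 4 groups held 4 arrays each: control muscle without overload (day 0), and muscle taken 3, 7 and 28 days after surgery. Strain, tissue and breeder status were the same in all groups, the labels name no genetic change or drug, and no sham-operated group is among them, so surgery and load cannot be told apart. The labels number the samples within a day and give no animal for them, so the p-values describe the spread between samples, which may be technical.

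Lysyl oxidases oxidise the amino group of lysine and hydroxylysine side chains in collagen and of lysine in elastin, and the aldehydes formed then condense into covalent bonds between molecules. These bonds give tendon, fascia and the connective tissue around muscle fibres their stiffness and their resistance to proteases. Lox and Loxl1 are made as proenzymes that are cleaved outside the cell, Loxl1 is tied closely to elastic fibres, and Loxl2, with Loxl3 and Loxl4, carries scavenger receptor domains in place of that propeptide and acts on collagen IV of basement membranes among other substrates. In muscle these enzymes are made mostly by fibroblasts and related stromal cells.

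Values are log2 expression, so a difference of 1 is a doubling. Rose and fell are used only where limma gave an adjusted p under 0.05 over all 14557 genes, and differences are given ± SE with n = 4 arrays a day. The 16 arrays correlated at 0.985 to 0.99 within a day and at 0.922 to 0.984 between days. The share of genes in which 1 array lay apart from the other 3 of its day by Dixon's ratio was 1% to 1.94% over the arrays. Day 7 replicate 2, at 1.31%, was low in some tendon and microfibril genes but not in all. Fmod read 5.87 there against 8.01 to 8.39 on the other day 7 arrays, and Kera 4.21 against 5.97 to 6.20. Chad read 2.84 against 4.65 to 5.11 and Mfap2 5.22 against 6.34 to 6.68. The same array was the highest of day 7 for the microfibril genes Mfap5 (9.58) and Fbn1 (10.28) and the tenocyte marker Thbs4 (11.74). For the tenocyte markers Scx, Mkx and Egr1 that array lay within the range of the other day 7 arrays. Without it the differences of Lox, Loxl1 and Loxl2 from day 0 at day 7 were 3.63, 3.55 and 2.83, in place of 3.64, 3.49 and 2.74. Markers of muscle fibres were bright on every array: the mean of 7 of them lay between 12.1 and 12.8. The median of all clusters on an array was 3.19 to 3.41, and each of the 3 genes lay above it on every array.

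Promoters are shown as a description of the family, which split into genes that rose and 1 that did not pass the test. RefSeq sequences of build GRCr8 matched Loxl1 and, outside the 3 genes, Loxl3 and Loxl4. None was found for Lox or Loxl2, so the split cannot be read from these sequences. Each line holds the 250 bases before the annotated start, 5′ to 3′ on the gene's strand. Loxl1 is at chr8:67612225-67612474 on the minus strand, Loxl3 at chr4:117098108-117098357 on the plus strand and Loxl4 at chr1:251365578-251365827 on the minus strand. Capitals mark matches on either strand to CAGAC (bound by Smad proteins, the messengers of TGF-beta) and GGAATG (bound by Tead factors).
Loxl1: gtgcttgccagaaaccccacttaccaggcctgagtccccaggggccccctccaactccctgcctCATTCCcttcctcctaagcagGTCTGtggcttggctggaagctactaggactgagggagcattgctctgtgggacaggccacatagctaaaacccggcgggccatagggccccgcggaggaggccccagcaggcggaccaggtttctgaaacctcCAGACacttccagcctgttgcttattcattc
Loxl3: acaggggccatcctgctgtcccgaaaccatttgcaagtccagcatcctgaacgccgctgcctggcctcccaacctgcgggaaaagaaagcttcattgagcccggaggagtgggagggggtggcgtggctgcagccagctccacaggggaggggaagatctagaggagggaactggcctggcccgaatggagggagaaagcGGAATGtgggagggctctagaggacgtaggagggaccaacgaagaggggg
Loxl4: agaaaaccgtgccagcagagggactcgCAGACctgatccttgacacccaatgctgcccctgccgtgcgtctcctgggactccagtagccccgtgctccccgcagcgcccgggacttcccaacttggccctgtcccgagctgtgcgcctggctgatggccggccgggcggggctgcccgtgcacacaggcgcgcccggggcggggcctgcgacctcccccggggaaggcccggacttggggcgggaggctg
The Loxl1 window held CAGAC on both strands and GGAATG on the strand opposite the gene, the Loxl3 window held GGAATG alone, and the Loxl4 window held CAGAC alone. Over the 33469 promoters of the table, windows of the same length held CAGAC in 42.9% and GGAATG in 12.1%. TGANTCA (AP-1, in 6.34% of promoters), ACGTG (the core of hypoxia response elements, 16.6%) and TATAAA (12.9%) were also searched on both strands and had no match in the 3 windows. The Loxl4 window was the richest in G and C, at 72.8% against 60.4% for Loxl1 and 62.4% for Loxl3. A match of letters is a description and does not show binding.

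Lox, Loxl1 and Loxl2 all rose by day 3, stayed high at day 7 and were still above control muscle at day 28. The whole table moved at these times: against day 0, 21.7% of genes rose and 19.6% fell by day 3, 16.9% rose and 14.9% fell by day 7, and 6.29% rose and 2.8% fell by day 28. Arrays lay wholly above those of day 0, as they did for all 3 genes on every later day, in 20.7% of genes at day 3, 16.3% at day 7 and 8.93% at day 28. The 3 genes therefore rose where many others did, and their differences lay near the top of the table. Of the calls made, 52.5%, 53.2% and 69.2% were rises at days 3, 7 and 28. With each array centred on its median over tested genes these shares were 18.2%, 16.8% and 15.2%, since that centring moves the median difference of all genes from -0.05, -0.04 and -0.005 to -0.51, -0.40 and -0.26. Under it Lox, Loxl1 and Loxl2 still rose on all 3 days, by 4.02, 2.68 and 2.55 at day 3. Among 14557 genes ranked by rise, Lox stood at rank 25 at day 3, 24 at day 7 and 80 at day 28. Loxl1 stood at rank 181, then 29, then 45, and Loxl2 at rank 217, then 91, then 26. As a description, Lox held the highest place of the 3 at days 3 and 7 and Loxl2 at day 28. With the values as deposited, no such order passed 0.05 after adjustment in the within-array tests below. At day 7 the rises of Lox and Loxl1 differed by 0.15, with overlapping arrays.

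Lox, the founding member of the family and a main crosslinker of fibrillar collagen, had the highest rise of the 3 at day 3. At day 7 its rise exceeded that of Loxl1 by 0.15 only, with overlapping within-array differences (exact permutation p = 0.571, adjusted p = 0.571). The 4 control arrays of Lox read 5.36, 4.95, 5.46 and 5.61, and the day 3 arrays 9.53, 9.97, 9.55 and 10.3. The day 7 arrays read 9.29, 9.02, 8.67 and 8.98. The day 28 arrays read 6.90, 6.86, 6.87 and 6.84. No 2 days overlapped, and the day 28 arrays lay closest together, with an SD of 0.0241 against 0.252 to 0.362 on the other days. Lox was 4.48 ± 0.18 higher at day 3 than at day 0, a 22.4-fold difference with adjusted p = 1.49e-11. It was 3.64 ± 0.18 higher at day 7 (12.5-fold, adjusted p = 2.49e-10) and 1.52 ± 0.18 higher at day 28 (2.88-fold, adjusted p = 3.52e-05). Lox fell from day 3 to day 7 by 0.84 ± 0.18 with adjusted p = 0.00343, when 9.23% of genes fell and 10.8% lay wholly below their day 3 arrays, as Lox alone of the 3 did. From day 7 to day 28 it fell by 2.12 ± 0.18 with adjusted p = 1.18e-06, when 9.38% of genes fell, and this was rank 45 among all falls. All 3 genes fell over that interval with no overlap of their arrays, as 10.1% of genes lay wholly lower. In order, its level ran from day 3 to day 7 to day 28 to day 0, and each neighbour in that order differed by the test.

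Loxl1, the member tied to elastic fibre formation, was highest at day 7. Its control arrays read 5.14, 5.03, 5.81 and 5.44, the day 3 arrays 8.30, 8.57, 8.35 and 8.75, and the day 7 arrays 8.60, 8.68, 8.86 and 9.26. The day 28 arrays read 7.16, 7.36, 7.26 and 6.76. The arrays of days 3 and 7 overlapped, and both lay wholly above those of day 28, which lay wholly above those of day 0. Loxl1 rose by 3.14 ± 0.19 at day 3 (8.81-fold, adjusted p = 7.95e-10), by 3.49 ± 0.19 at day 7 (11.3-fold, adjusted p = 7.20e-10) and by 1.78 ± 0.19 at day 28 (3.44-fold, adjusted p = 1.39e-05). Day 7 lay 0.35 ± 0.19 above day 3 with a 95% interval of -0.05 to 0.76 and adjusted p = 0.256, so these neighbours in the order did not differ by the test. From day 7 to day 28 it fell by 1.71 ± 0.19 with adjusted p = 1.91e-05.

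Loxl2, which can act on basement membrane collagen as well as on fibrils, was still 4.03-fold above control at day 28, against 8.04-fold at day 3. Its control arrays read 3.90, 4.25, 5.02 and 4.55, a wide spread with an SD of 0.475. The day 3 arrays read 7.05, 7.75, 7.15 and 7.81, the day 7 arrays 7.28, 6.88, 7.24 and 7.28, and the day 28 arrays 6.40, 6.17, 6.55 and 6.66. As for Loxl1, days 3 and 7 overlapped and the other days did not. Loxl2 rose by 3.01 ± 0.22 at day 3 (8.04-fold, adjusted p = 7.58e-09), by 2.74 ± 0.22 at day 7 (6.66-fold, adjusted p = 7.08e-08) and by 2.01 ± 0.22 at day 28 (4.03-fold, adjusted p = 1.86e-05). Day 7 lay 0.27 ± 0.22 below day 3 (difference -0.27, 95% interval -0.74 to 0.20, adjusted p = 0.503). From day 7 to day 28 it fell by 0.73 ± 0.22 with adjusted p = 0.0309. That last call did not pass when arrays were centred on the median of tested genes (adjusted p = 0.0514), nor without day 7 replicate 1 (0.0752), 3 (0.0646) or 4 (0.0720) or day 28 replicate 1 (0.0612) or 2 (0.0914). From day 3 to day 28 Loxl2 fell by 1.00 ± 0.22 with adjusted p = 0.00188, Loxl1 by 1.36 ± 0.19 with adjusted p = 2.55e-05 and Lox by 2.96 ± 0.18 with adjusted p = 5.28e-09, when 16.8% of genes fell and 16.4% lay wholly lower, as these 3 did.

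The other family members had smaller differences from day 0. Loxl3, a relative of Loxl2, read 3.82 to 4.96 over the day 0 arrays. Its day 3 arrays read 5.52 to 6.04, its day 7 arrays 5.41 to 5.88 and its day 28 arrays 4.81 to 5.56. It rose by 1.35 ± 0.22 at day 3 (adjusted p = 7.15e-05) and 1.27 ± 0.22 at day 7 (adjusted p = 2.54e-04). At day 28 it was higher by 0.83 ± 0.22 with adjusted p = 0.0245, with overlapping arrays. That day 28 call was lost with arrays centred on the median of tested genes (0.58), in a fit of days 0 and 28 alone (adjusted p = 0.0685), and on leaving out day 0 replicate 2 (0.64) or 3 (0.77) or day 28 replicate 1 (0.71) or 2 (0.77). Loxl4 did not pass the test on any day: its differences from day 0 were 0.21 ± 0.18, 0.11 ± 0.18 and 0.10 ± 0.18 at days 3, 7 and 28, with 95% intervals whose limits lay between -0.28 and 0.58. All 3 of these small differences turned negative when arrays were centred on the median of tested genes.

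**Figure D1:**
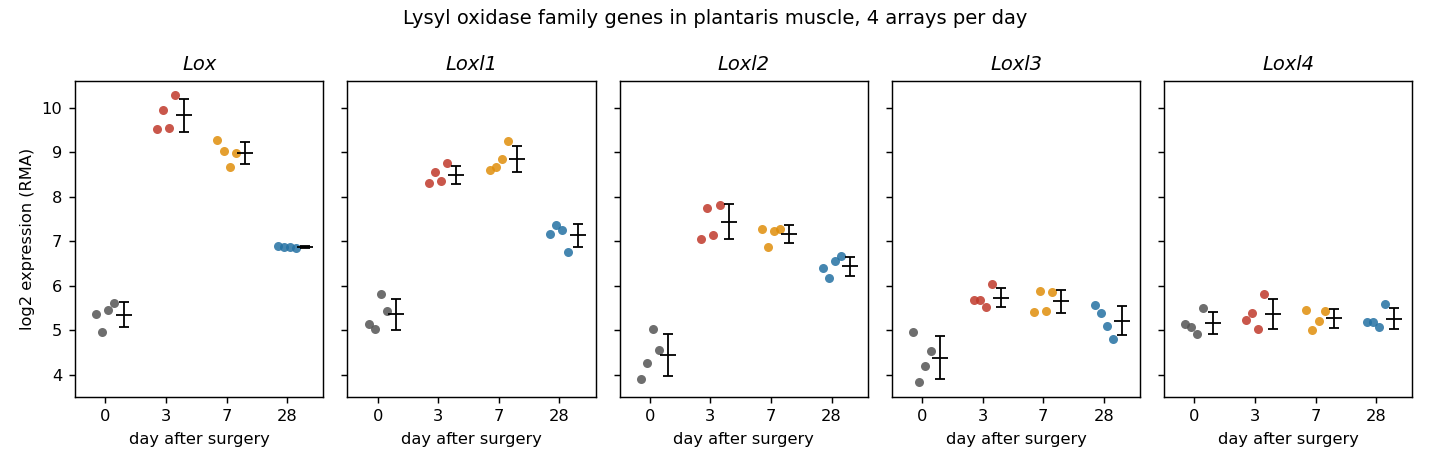
Log2 expression of Lox, Loxl1, Loxl2, Loxl3 and Loxl4 (vertical axis) on each of 4 arrays at days 0, 3, 7 and 28 after surgery (horizontal axis, not to scale in time). Points are arrays and bars the mean ± SD of 4; probes differ in brightness, so heights are compared between days within a panel. Lox stood highest at day 3, with arrays at 9.53 to 10.3, and Loxl4 stayed between 4.92 and 5.81 throughout.

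To ask if the 3 genes changed by the same amount, the difference between a pair of them was taken within each array and compared between days by a two-sided exact permutation test over arrays. Such a difference is free of a scaling that is the same for all genes of an array. Its absolute size depends on the probes, and its change between days is what is read. That change can depend on the probes too, since RMA compresses the differences of dim clusters, and Loxl2 read 3.90 to 5.02 at day 0. Unequal changes therefore need not be unequal changes in transcripts, which was not tested. The same limit holds for the differences from collagens and markers below. With 4 arrays against 4 the smallest p is 0.0286, and over the 18 tests made (3 pairs and 6 pairs of days) the smallest adjusted p was 0.0514, so no pair passed 0.05 after adjustment and all values below are given with both.

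The separation of Lox from the other two was widest at day 3. Lox minus Loxl1 read -0.35 to 0.22 over the control arrays and 1.20 to 1.53 over the day 3 arrays, without overlap. Its mean was 1.35 higher at day 3 (exact permutation p = 0.0286, adjusted p = 0.0514). By day 7 it was -0.28 to 0.69, 1.20 below day 3 (a change of -1.20, exact permutation p = 0.0286, adjusted p = 0.0514) and 0.15 above day 0 with overlapping arrays (exact permutation p = 0.571, adjusted p = 0.571). At day 28 the change from day 0 was -0.26 (exact permutation p = 0.2, adjusted p = 0.24).

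Lox was next set against Loxl2. Over the control arrays Lox minus Loxl2 read 0.44 to 1.46. The day 3 arrays read 2.21 to 2.48, the day 7 arrays 1.43 to 2.15 and the day 28 arrays 0.18 to 0.70. The change from day 0 was 1.48 at day 3 (exact permutation p = 0.0286, adjusted p = 0.0514), 0.91 at day 7 with overlapping arrays (p = 0.0571 by the same exact test, adjusted p = 0.0935) and -0.49 at day 28 (exact p = 0.114, adjusted p = 0.171). From day 7 to day 28 the change was -1.39 without overlap of the arrays (exact permutation p = 0.0286, adjusted p = 0.0514). Loxl1 minus Loxl2 changed by 0.13 from day 0 to day 3 with overlapping arrays (exact permutation p = 0.314, adjusted p = 0.333). It then stood 0.63 higher at day 7 than at day 3, at 1.32 to 1.98 against 0.82 to 1.26 (exact permutation p = 0.0286, adjusted p = 0.0514). From day 7 to day 28 its change was -0.99 without overlap (exact permutation p = 0.0286, adjusted p = 0.0514). Against day 0 the change of Loxl1 minus Loxl2 at day 7 was 0.76, also without overlap (exact permutation p = 0.0286, adjusted p = 0.0514). As a description, the arrays without overlap set Lox apart at day 3 and Loxl1 apart from Loxl2 at day 7. None of these changes passed 0.05 after adjustment, and the part of the probes in them was not tested.

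**Figure D2:**
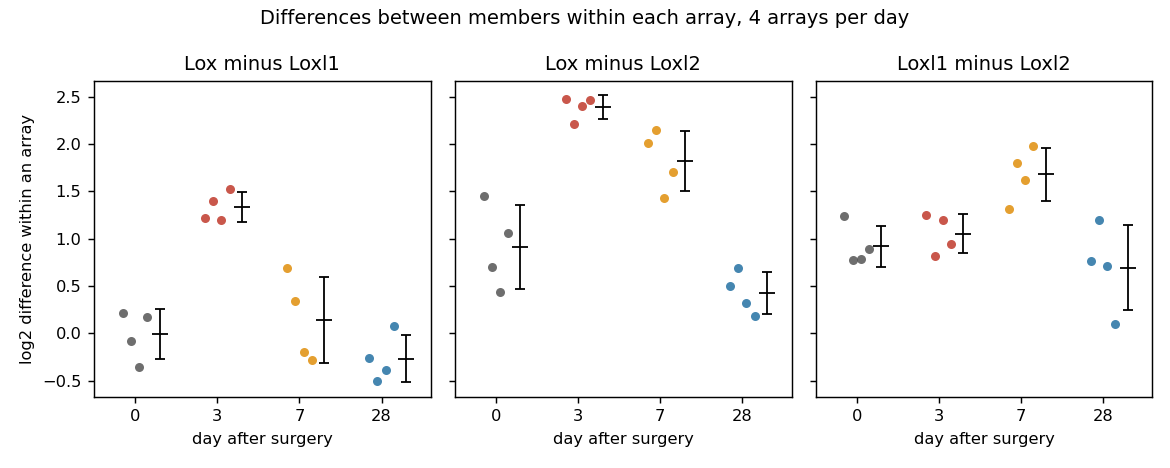
Difference in log2 expression between 2 members within an array (vertical axis) at days 0, 3, 7 and 28 (horizontal axis, not to scale in time), with 4 arrays a day as points and the mean ± SD as bars. Lox minus Loxl1 stood at 1.20 to 1.53 at day 3 and at 0.69 or below on every array of the other days.

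For each member the 6 genes whose values over the 16 arrays were most like it were listed: Lox shared none of its 6 with the other two, and Loxl1 and Loxl2 shared Fn1 and Col1a2. These Pearson correlations mix the time course, which all such genes share, with the spread within a day, and are given as a description. For Lox the 6 highest were Gm2a (0.991), Sfrp1, a secreted Wnt inhibitor (0.990), Ppib, a prolyl isomerase of the procollagen machinery (0.990), Txndc5, a disulphide isomerase of the endoplasmic reticulum (0.988), Gpnmb, a glycoprotein abundant in macrophages (0.987), and Vim, the mesenchymal filament vimentin (0.987). With the day means taken out, the correlations of Txndc5 and Ppib with Lox were 0.871 and 0.786, and those of Gm2a, Sfrp1, Gpnmb and Vim were 0.550 to 0.574.

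For Loxl1 the 6 were Bicc1 (0.991), Col1a2 (0.984), Col6a1 (0.983), Col1a1 (0.982), Postn (0.982) and Fn1 (0.981), of which all but Bicc1, an RNA-binding protein, are matrix genes. For Loxl2 they were Fn1 (0.974), Col3a1 (0.971), Pcolce (0.971), Fam114a1 (0.970), Fbn1 (0.970) and Col1a2 (0.968). Lox correlated with Loxl1 at 0.939 and with Loxl2 at 0.922, and Loxl1 with Loxl2 at 0.950. These values lie below those of the 6 genes because the 6 were picked as the highest. Among all other genes ranked by correlation with Loxl1, Loxl2 stood at 66 and Lox at 97. For Loxl2, Loxl1 stood at 39 and Lox at 123, and for Lox, Loxl1 stood at 345 and Loxl2 at 514. With the day means taken out, Lox correlated with Loxl1 at 0.391 and with Loxl2 at 0.527, and Loxl1 with Loxl2 at 0.540. On that measure the 6 genes of Loxl1 ran from 0.430 (Col6a1) to 0.736 (Fn1). Those of Loxl2 ran from 0.409 (Fbn1) to 0.781 (Pcolce), so the value between Loxl1 and Loxl2 lay within both ranges.

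Most collagens of the list, substrates of these enzymes, rose at the same times. Counts in this list and those that follow are to be read beside the shares of all tested genes. At day 3, 21.7% of these rose and 19.6% fell, at day 7, 16.9% and 14.9%, and at day 28, 6.29% and 2.8%. Of 10 measured fibrillar and fibril-associated collagens of a list of 13, 8 rose and 1 fell at day 3 (median 2.48 against -0.05 for all tested genes), 8 rose and 1 fell at day 7 (median 2.55 against -0.04) and 6 rose and 0 fell at day 28 (median 1.19 against -0.005). Col1a1, a chain of collagen I, rose by 4.35 ± 0.22, 4.68 ± 0.22 and 2.68 ± 0.22 over these days. Col1a2, the other chain of collagen I, rose by 3.78 ± 0.20, 3.85 ± 0.20 and 2.11 ± 0.20, and Col3a1, the collagen of young and pliant matrix, by 3.79 ± 0.16, 3.71 ± 0.16 and 2.37 ± 0.16. Col24a1, named here after its values were seen as the 1 collagen of the list that fell at days 3 and 7, passed in that direction with adjusted p = 4.87e-04 and 5.45e-04.

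Against collagen I and III the 3 enzymes held different positions. The mean of Col1a1, Col1a2 and Col3a1 was subtracted from each member within an array, a comparison added after the data were seen, with 36 exact permutation tests in its family, of which the smallest adjusted p was 0.0571. Lox stood 0.51 above its day 0 position against these collagens at day 3, without overlap (exact permutation p = 0.0286, adjusted p = 0.0571), and at day 28 its change was -0.87, again without overlap (exact permutation p = 0.0286, adjusted p = 0.0571). Loxl1 was lower against the collagens than in control muscle on all 3 later days, by -0.83, -0.59 and -0.61, each without overlap and with the same exact p. Loxl2 was lower by -0.96 at day 3 and -1.34 at day 7, each without overlap. At day 28 its change was -0.38 with overlapping arrays (exact permutation p = 0.229, adjusted p = 0.257). None of these passed 0.05 after adjustment.

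**Figure D3:**
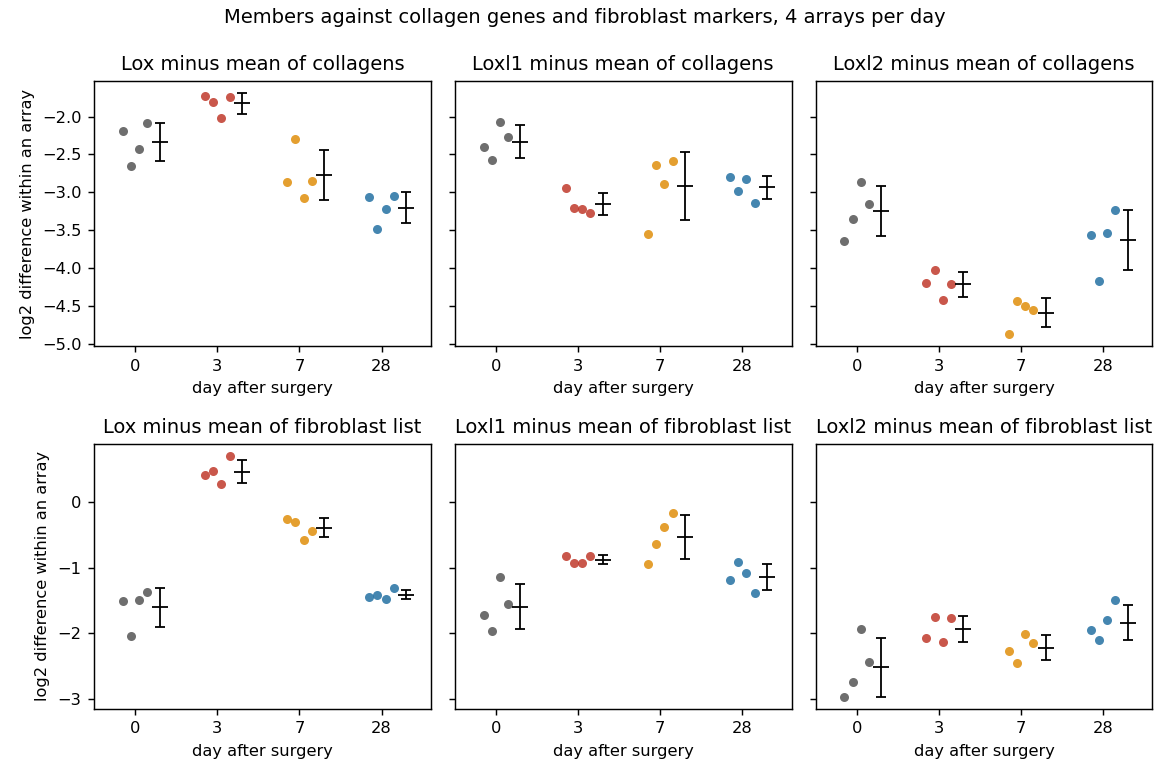
Log2 expression of each member minus, within the same array, the mean of Col1a1, Col1a2 and Col3a1 (upper row) or the mean of 12 fibroblast markers (lower row), at days 0, 3, 7 and 28 (horizontal axis, not to scale in time). Points are the 4 arrays of a day and bars the mean ± SD; Lox lay 0.51 above its control position against the collagens at day 3 and 0.87 under it at day 28 (a change of -0.87).

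Of the elastic fibre genes, 10 of 17 were measured, and 6 rose at day 3, 9 at day 7 and 4 at day 28, with 0 falling on any of these days (medians 0.69, 1.15 and 0.46). Among all tested genes 21.7%, 16.9% and 6.29% rose on these days. Mfap5, a microfibril protein, rose by 2.63 ± 0.17, 2.40 ± 0.17 and 1.74 ± 0.17, and the microfibril scaffold Fbn1 by 2.60 ± 0.15, 2.24 ± 0.15 and 1.56 ± 0.15. Efemp2, fibulin-4, which tethers pro-Lox to tropoelastin, rose by 2.20 ± 0.18, 1.67 ± 0.18 and 0.75 ± 0.18. Fbln5, fibulin-5, which binds Loxl1, rose by 0.60 ± 0.17 at day 3 and 0.50 ± 0.17 at day 7 and did not pass at day 28 (0.17 ± 0.17).

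Eln, the elastin substrate itself, did not pass on any day. Its differences from day 0 were 0.04 ± 0.33, 0.73 ± 0.33 and 0.22 ± 0.33 at days 3, 7 and 28. Its control arrays ran from 4.03 to 6.02, and the day 7 arrays, from 5.11 to 5.99, lay within that range. Without day 0 replicate 4, which held the 6.02, the day 7 difference was 1.10 with adjusted p = 0.00449.

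Enzymes and chaperones that prepare collagen come before crosslinking. In the list of hydroxylases, glycosyltransferases and chaperones of the endoplasmic reticulum, 14 of 28 symbols were measured (some are older symbols of others). Of these, 11 rose and 2 fell at day 3, 11 rose and 2 fell at day 7, and 4 rose and 0 fell at day 28. Among all tested genes 21.7%, 16.9% and 6.29% rose and 19.6%, 14.9% and 2.8% fell on these days. Sec23a, a coat protein of transport vesicles, was among those that fell at days 3 and 7 (-0.41 and -0.32). The other was P3h2, a prolyl 3-hydroxylase, at day 3 (-1.42) and P4ha1, a subunit of prolyl 4-hydroxylase, at day 7 (-0.43); these 3 are named after their values were seen. The count of 2 falls at day 7 was 0 without day 0 replicate 4 or day 7 replicate 4 and 1 without day 0 replicate 1, 2 or 3 or day 7 replicate 3. With cyclic loess the falls were 1 at day 3 and 0 at day 7. The count of 4 rises at day 28 was 2 without day 0 replicate 1 or day 28 replicate 3. With arrays centred on the median of tested genes 2 rose and 2 fell at day 28. The medians were 1.20, 0.85 and 0.10, and the last turned to -0.15 when arrays were centred on the median of tested genes. Plod2, the lysyl hydroxylase of collagen telopeptides whose product the lysyl oxidases turn into stable crosslinks, was highest at day 3. Control arrays read 6.53 to 6.94. Those of day 3 read 9.06 to 9.69, those of day 7 read 8.48 to 8.94, and those of day 28 read 6.93 to 7.54, which overlapped the controls. Plod2 rose by 2.65 ± 0.17 at day 3, fell from day 3 to day 7 by 0.66 ± 0.17 (adjusted p = 0.0128), and at day 28 was 0.67 ± 0.17 above control (adjusted p = 0.0194), a call lost with arrays centred on the median of tested genes (0.42) and without day 0 replicate 1 (0.61) or 3 (0.65) or day 28 replicate 1 (0.62) or 3 (0.63).

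Fkbp10, a chaperone that acts with Plod2, rose by 2.65 ± 0.21 at day 3 and 2.41 ± 0.21 at day 7. Serpinh1, the collagen chaperone Hsp47, rose by 2.46 ± 0.19 at day 3, and P4ha3, a subunit of prolyl hydroxylase, by 2.57 ± 0.22 at day 3 and 3.08 ± 0.22 at day 7. At day 28 Fkbp10 was higher by 0.82 ± 0.21, Serpinh1 by 0.78 ± 0.19 and Ppib by 0.72 ± 0.16. The Fkbp10 call at day 28 was lost with arrays centred on the median of tested genes (0.57) and without day 0 replicate 1 (0.79) or day 28 replicate 2 (0.73), and that of Serpinh1 without day 28 replicate 3 (0.67).

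Of the genes that process procollagen and pro-Lox or hold them together outside the cell, 8 of 13 were measured, and 5 rose and 0 fell at each of days 3, 7 and 28 (medians 1.33, 1.84 and 1.38). Among all tested genes 21.7%, 16.9% and 6.29% rose on these days. Postn, periostin, which binds the protease that activates Lox, rose by 3.63 ± 0.20, 4.36 ± 0.20 and 1.84 ± 0.20. Pcolce, an enhancer of procollagen cleavage, rose by 2.94 ± 0.19, 2.65 ± 0.19 and 1.45 ± 0.19. Fn1, the fibronectin on which Lox is activated, rose by 3.08 ± 0.15, 2.87 ± 0.15 and 1.69 ± 0.15, and Sparc, a collagen-binding protein, by 2.04 ± 0.16, 2.35 ± 0.16 and 1.41 ± 0.16. The main activating protease, Bmp1, had no cluster of its own and was not analysed here.

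Lysyl oxidases need copper, loaded in the secretory pathway. Of the copper list 10 of 14 symbols were measured, and 4 rose and 1 fell at day 3, beside 21.7% and 19.6% of all tested genes. At day 7, 7 rose and 0 fell, beside 16.9% and 14.9%. At day 28, 2 rose and 0 fell, beside 6.29% and 2.8%. The medians of the list were 0.31, 0.60 and 0.22. The 2 rises at day 28 were 0 without day 0 replicate 1 or day 28 replicate 1, 2 or 3, 1 without day 0 replicate 2, 3 or 4, and 0 with arrays centred on the median of tested genes. The single fall at day 3 was lost without day 0 replicate 1, 2 or 3 or day 3 replicate 1, 2 or 4. Under that centring 3 fell at day 3, the 7 rises at day 7 were 3, and 1 fell at each of days 7 and 28. The first and last medians turned to -0.15 and -0.03 with arrays centred on the median of tested genes. Atox1, the chaperone that hands copper to the pump of the secretory pathway, rose by 1.15 ± 0.18 at day 3 and 1.30 ± 0.18 at day 7. Slc31a1, the main copper importer, rose by 0.98 ± 0.16 at day 3, and its relative Slc31a2 by 1.66 ± 0.21 at day 3 and 1.26 ± 0.21 at day 7. Mt2A, a metallothionein that binds copper and zinc, rose by 5.55 ± 0.43 and 4.10 ± 0.43. The pump itself, Atp7a, had no cluster of its own and was not analysed here.

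Among other crosslinkers and enzymes of the matrix, 7 of 9 were measured, and 4 rose at day 3, 3 at day 7 and 2 at day 28, with 0 falling. Over all tested genes 21.7%, 16.9% and 6.29% rose and 19.6%, 14.9% and 2.8% fell on these days. The medians of the list were 0.44, -0.05 and 0.13. With arrays centred on the median of tested genes the first and last of these medians were -0.02 and -0.12, and with cyclic loess the day 7 median was 0.11. Under the median centring 2 rose and 2 fell at day 3, and 4 fell at day 7. Without the dimmest 50% of genes, which leaves out dim members of the list, 2 rose at day 3. F13a1, the transglutaminase of coagulation factor XIII that tissue macrophages also make, rose by 3.65 ± 0.24, 2.12 ± 0.24 and 1.85 ± 0.24. Pxdn, peroxidasin, which crosslinks collagen IV, rose by 1.00 ± 0.24 at day 3 and 1.13 ± 0.24 at day 7, and the day 3 call was lost with arrays centred on the median of tested genes (0.53). Sulf2, a sulphatase that trims heparan sulphate and is no crosslinker, rose by 2.35 ± 0.14, 2.29 ± 0.14 and 0.93 ± 0.14.

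TGF-beta and low oxygen are known inducers of Lox in cultured cells. Of 15 symbols in the TGF-beta list (Ctgf is an older symbol of Ccn2), 8 were measured. Of these, 4 rose and 3 fell at day 3, beside 21.7% and 19.6% of all tested genes. At day 7, 4 rose and 2 fell, beside 16.9% and 14.9%. At day 28, 1 rose and 1 fell, beside 6.29% and 2.8%. The single rise at day 28 was lost without day 0 replicate 1 or 2 or day 28 replicate 1, 2 or 3 and with arrays centred on the median of tested genes. The count was 2 without day 0 replicate 3, without the dimmest 50% of genes and under another moderation (intensity trend and robust priors). Under that centring 2 rose at day 3, 4 fell at day 7 and 3 fell at day 28. The medians at days 3 and 7 were 0.34 and 0.32 and turned to -0.12 and -0.04 with arrays centred on the median of tested genes, and the day 28 median was -0.04. Tgfb1, the ligand most often tied to fibrosis, read 5.42 to 6.12 at day 0 and 7.87 to 8.48 at day 3. It rose by 2.50 ± 0.18 at day 3 and 1.67 ± 0.18 at day 7, fell from day 3 to day 7 by 0.83 ± 0.18 (adjusted p = 0.00348), and did not pass at day 28 (0.53 ± 0.18, adjusted p = 0.0728), although its 4 arrays there lay above all control arrays. Ccn2, a connective tissue growth factor induced by TGF-beta, rose by 1.83 ± 0.28 and 1.55 ± 0.28 at days 3 and 7 and differed by -0.05 ± 0.28 at day 28 (adjusted p = 0.936). Tgfb3 differed from Tgfb1 in course: it fell by 0.34 ± 0.13 at day 3 (adjusted p = 0.0485) and rose by 0.55 ± 0.13 at day 7. Smad7, the inhibitory Smad, fell by 1.13 ± 0.19, by 0.80 ± 0.19 and by 0.93 ± 0.19 on the same days.

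Of 9 measured hypoxia response genes of 13, 3 rose and 3 fell at day 3, when 21.7% of all tested genes rose and 19.6% fell. At day 7, 3 rose and 2 fell, beside 16.9% and 14.9% of all tested genes. With 9 genes, these counts are not read as a result about the list. At day 28, 1 rose and 0 fell, beside 6.29% and 2.8%. There the count of rises was 2 without day 3 replicate 4, without the dimmest 50% of genes and with cyclic loess. It was also 2 in a fit of days 0 and 28 alone and under another moderation (intensity trend and robust priors). With arrays centred on the median of tested genes the falls were 5, 4 and 1 at days 3, 7 and 28. The medians, -0.12, 0.11 and 0.09, took the other sign under cyclic loess at day 3 (0.16) and under centring on the median of tested genes at days 7 and 28 (-0.25 and -0.16). Adm, adrenomedullin, a vasodilator peptide, rose by 1.46 ± 0.19, 1.34 ± 0.19 and 1.11 ± 0.19, and Slc2a1, a glucose transporter, by 1.55 ± 0.15 at day 3. Egln3 and Pdk1 of the same list, named after their values were seen, lay wholly lower at day 3 than at day 0. Egln3 read 7.93 to 9.04 against 9.33 to 9.71 at day 0, and Pdk1 7.60 to 7.87 against 8.36 to 8.84. Epas1, a hypoxia-inducible factor most abundant in endothelium, fell by 2.27 ± 0.19 at day 3 and by 1.86 ± 0.19 at day 7. Hif1a had no cluster of its own and was not analysed here.

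**Figure D4:**
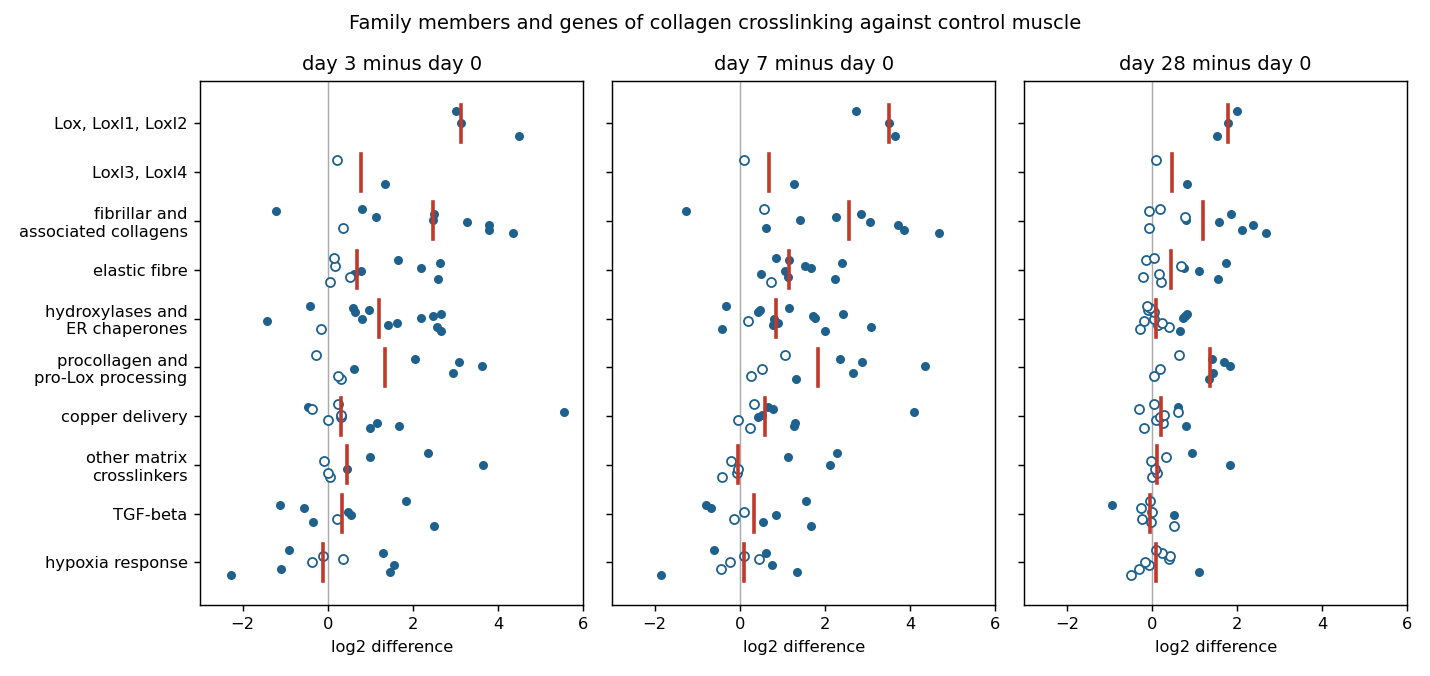
Log2 differences from day 0 (horizontal axes) at days 3, 7 and 28 for Lox, Loxl1 and Loxl2 and for the genes of each list (rows). Filled points passed an adjusted p of 0.05 in limma, open points did not, and red bars are the medians of each row; the 3 members lay between 3.01 and 4.48 at day 3 and between 1.52 and 2.01 at day 28.

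Markers of cell types moved at the same times, and in bulk muscle fewer cells of a type and less RNA per cell cannot be told apart. Over all tested genes 21.7% rose and 19.6% fell at day 3, and 16.9% rose and 14.9% fell at day 7. At day 28, 6.29% rose and 2.8% fell, and the counts of markers are to be read beside these shares. Of the fibroblast and fibro-adipogenic markers 12 of 12 measured rose at days 3 and 7 and 11 at day 28. Their mean level per control array was 6.86 to 6.99. It was 9.12 to 9.59 on the day 3 arrays, 9.24 to 9.54 on those of day 7 and 8.15 to 8.35 on those of day 28, and none lay below the median of all clusters on any day. Taken against this mean within each array, Lox was 2.06 higher at day 3 and 1.21 higher at day 7 than in control muscle, each without overlap of the arrays (exact permutation p = 0.0286, adjusted p = 0.0571). At day 28 it was 0.19 higher with overlap (exact permutation p = 0.229, adjusted p = 0.257). Loxl1 was 0.72 and 1.06 higher against the same markers at days 3 and 7 without overlap (exact permutation p = 0.0286, adjusted p = 0.0571). At day 28 Loxl1 was 0.45 higher with overlap (exact permutation p = 0.0857, adjusted p = 0.11). Loxl2 overlapped its control arrays on all 3 days, at 0.58, 0.30 and 0.68 (exact permutation p = 0.0857 to 0.314, adjusted p = 0.11 to 0.333).

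Of the macrophage and monocyte markers 12 of 12 measured rose at days 3 and 7 and 11 at day 28, and their mean level was 4.62 to 5.01 on control arrays. On the arrays of day 3 it was 8.98 to 9.41, of day 7 7.48 to 7.97 and of day 28 6.03 to 6.52. At day 0, 3 of these 12 lay below the median of all clusters. This list was highest at day 3, as were the means of Lox and, with arrays that overlapped those of day 7, of Loxl2 and Loxl3. Of the endothelial markers 6 of 8 fell and 1 rose at day 3, with a mean level of 6.48 to 6.89 at day 0 and 5.43 to 5.82 at day 3. Of the pericyte and smooth muscle markers 3 of 6 fell and 1 rose at day 3. Of the tenocyte markers 2 of 8 rose at day 3, near the 21.7% of all genes that rose, and 3 at day 7, with 0 falling. Their mean level was 5.39 to 6.41 at day 0 and 6.04 to 7.19 at day 7. Of the satellite cell and myoblast markers 5 of 7 rose at days 3 and 7 (medians 1.14 and 1.36), 1 rose at day 28, and 7 of 7 fell from day 7 to day 28. Their mean level was 5.30 to 5.64 on control arrays, 6.34 to 6.65 at day 3 and 6.69 to 7.07 at day 7. Of the adipocyte markers 4 of 6 fell and 1 rose at day 3, with a mean level of 5.08 to 5.53 against 5.79 to 6.37 at day 0. Of the muscle fibre markers 3 of 7 fell at day 3, with a mean level of 12.1 to 12.4 against 12.7 to 12.8 at day 0. The part of any of these cell types in the values of Lox, Loxl1 and Loxl2 was not tested.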

How the data were processed

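The authors deposited 1 log2 value for each cluster and array. The submitters' processing notes name RMA, oligo and limma for it. Versions, parameters and genome build are not given in the sources used here. They were used without further normalization. RMA compresses the differences of dim clusters. Of 36685 clusters, the platform annotation listed 15653, of which 14824 had 1 symbol and 829 several, and 21032 were unnamed here. For 234 genes with more than 1 cluster the one with the highest mean was kept, which left 14557 genes.

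Groups were taken from sample titles. With limma 3.58.1 in R 4.3.3, all 16 arrays were fitted together with 1 mean for each day (empirical Bayes moderation, two-sided), and p-values were adjusted by Benjamini-Hochberg over all genes in each of 6 comparisons, with 12 residual and 4.99 prior degrees of freedom. The fit was tested on simulated data. Within-array differences were tested by exact permutation in scipy 1.17.1. Arrays have no read depth, and their number limits the precision. Named genes are Lox, Loxl1, Loxl2, Loxl3 and Loxl4, a panel of related genes, up to 4 called members per list and day with the largest differences, and the 6 genes most correlated with each member. The members, lists, panel and tests were chosen with earlier results of these data known. Alternatives covered moderation, filters on dim genes, scaling of arrays, averaging of clusters, the groups fitted, a replicate block, and each array left out. The labels name no pairing by replicate number. Deviations from group means of arrays with the same number correlated at -0.036 to 0.092 (median 0.019). Those of arrays with other numbers correlated at -0.12 to 0.089 (median -0.007). A batch shared by arrays of the same number was not tested.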

Additional observations from a re-analysis of the deposited data

Results flagged for a closer look

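In 1 of the 32 groups of 4 arrays checked, 1 array lay apart from the other 3: Loxl2 at day 7 read 6.88 on replicate 2 and 7.24 to 7.28 on the others, so that its gap took 0.898 of the group's range, more than Dixon's test allows. Chance alone marks about 1 group in 20. Without that array the fall of Loxl2 from day 7 to day 28 was -0.82 in place of -0.73, with adjusted p = 0.0286 in limma.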

How the results depend on the processing

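The 3 genes' differences kept their direction and their side of the threshold in 161 of 162 refits with another setting and in 283 of 288 with 1 array left out. The exceptions all concern Loxl2 from day 7 to day 28, which was -0.62 with arrays centred on the median of tested genes and -0.82 to -0.63 with 1 array left out. Under the other settings the day 3 rise was 4.02 to 4.55 for Lox, 2.68 to 3.18 for Loxl1 and 2.55 to 3.01 for Loxl2. That centring also moved the number of genes called against day 0 from 6013 to 10321 at day 3, from 4617 to 8442 at day 7 and from 1323 to 3587 at day 28. With cyclic loess, 11 within-array differences between the 3 genes reached an adjusted p of 0.0468 in the exact permutation test in place of 0.0514 or 0.0935, because 1 more test reached the smallest p. Lox minus Loxl1 was then 1.37 (day 3 minus day 0), -1.21 (day 7 minus day 3) and -1.62 (day 28 minus day 3). Lox minus Loxl2 was 1.62 and 1.00 (days 3 and 7 minus day 0), -0.62 (day 7 minus day 3), -1.44 (day 28 minus day 7) and -2.06 (day 28 minus day 3), and Loxl1 minus Loxl2 was 0.84 (day 7 minus day 0), 0.59 (day 7 minus day 3) and -1.02 (day 28 minus day 7). With 1 array left out these differences have no test that could pass, since 3 against 4 allows no p below 0.0571, and 143 of 144 kept their direction: Lox minus Loxl1 from day 0 to day 7, 0.15 with all arrays, was -0.033 without day 7 replicate 1. The following values turned sign, and the cause was not tested. Of the genes, only Tgm5 had passed (0.44 at day 3, adjusted p = 0.0244 in limma). With arrays centred on the median of tested genes Loxl4 was -0.26, -0.25 and -0.15 at days 3, 7 and 28, Eln -0.42 at day 3 and -0.031 at day 28, and Tgm5, a transglutaminase, -0.020 at day 3. Centred on the brighter 50% of genes, Eln was -0.11 at day 3. With cyclic loess Eln was -0.15 at day 3, Loxl4 -0.029 at day 7 and -0.0039 at day 28, and Loxl1 minus the collagens 0.016 from day 7 to day 28 in place of -0.022. With 1 array left out, Eln ran from -0.25 to 0.42 at day 3 and from -0.068 to 0.60 at day 28, and Loxl4 from -0.015 to 0.21 at day 28. The replicate number as a block gave 6050, 4586 and 1344 genes called against day 0 and changed no call of the 3 genes. The labels do not say if arrays sharing a number were paired or shared a batch. The number of arrays, 4 a day, limits what can be told apart.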
